A study of Mus musculus with 18 samples.

Results

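The genes described here are 33 transcripts of myelin and of the mature oligodendrocyte, the cell that makes myelin in the central nervous system. They were picked by gene symbol from a list. Each symbol was found exactly once in both expression tables, so 33 of the 19464 genes of the brain table and 33 of the 55183 genes of the cell table are described, with the same identifiers and positions in both. By role, 14 code for structural proteins of the sheath, 7 for lipid and metabolite enzymes, 2 for gap junction proteins, 3 for secreted proteins and proteases, 4 for receptors and other membrane proteins, and 3 for the cytoskeleton and its regulators.

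The study sequenced RNA from 18 mouse samples in 6 groups of 3, to compare vehicle with CT-179, a small molecule labelled as an OLIG2 inhibitor. For the cell groups, PTCP53 304 cells, a single line of Sonic hedgehog (SHH) medulloblastoma with the genotype Ptch1+/-; Trp53-/-, received vehicle or CT-179 for 24 h or 144 h. For the brain groups, whole brains were taken on postnatal day 15 from mice with the genotype label Ptch1+/-; IR that had received vehicle or CT-179 since postnatal day 3. The genotype Ptch1+/- is shared by all 6 groups, Trp53-/- by the 4 cell groups, and the letters IR, which are not explained, by both brain groups. A whole brain holds every brain cell type, so fewer oligodendrocytes and less RNA per oligodendrocyte cannot be told apart in these libraries. Treatment was read from the treatment label. The titles of the brain samples labelled CT-179 also hold the word vehicle, and every direction in brain would turn around if those labels were crossed. Whether replicates were separate cultures or animals is not stated, so every p-value rests on a spread between libraries that may be technical only.

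Myelin is made when oligodendrocyte precursors leave the cell cycle, pass through a newly formed stage and wrap axons with a membrane rich in galactolipids and in a small number of abundant proteins. OLIG2 is a basic helix-loop-helix factor that binds E-box sequences and specifies the oligodendrocyte lineage, while SOX10 and MYRF drive the myelin genes themselves in maturing cells. In the mouse brain, myelination is under way in the first weeks after birth, so brains of this age hold precursors and myelinating cells together. OLIG2 is also present in progenitor-like cells of SHH medulloblastoma, a tumour of the cerebellum that arises from granule neuron precursors.

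Because OLIG2, SOX factors and MYRF act at regulatory DNA, the bases upstream of 6 members are shown: 3 that the cell line expressed (Plekhb1, Cnp and Gjc3) and 3 that stayed under 1 FPKM in it (Mog, Opalin and Ermn). The windows are the 250 bases before the RefSeq start, from RefSeq on GRCm38.p6, less any bases inside the gene span that the tables give. They are written 5′ to 3′ on the strand of the gene. Capitals mark matches to the E-boxes CAGCTG and CAGATG, the SOX words ACAAAG and ACAATG, or the MYRF word CTGGCAC, on either strand.
Plekhb1, chr7:100662415-100662644, minus strand: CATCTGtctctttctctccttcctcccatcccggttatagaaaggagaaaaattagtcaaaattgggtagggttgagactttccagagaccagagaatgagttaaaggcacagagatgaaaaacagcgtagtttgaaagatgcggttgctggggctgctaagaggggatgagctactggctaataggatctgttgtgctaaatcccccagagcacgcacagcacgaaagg
Cnp, chr11:100574689-100574903, plus strand: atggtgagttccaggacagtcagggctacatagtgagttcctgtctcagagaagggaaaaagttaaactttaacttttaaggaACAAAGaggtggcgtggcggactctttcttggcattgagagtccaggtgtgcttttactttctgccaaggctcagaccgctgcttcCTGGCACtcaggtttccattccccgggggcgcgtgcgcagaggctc
Gjc3, chr5:137963099-137963348, minus strand: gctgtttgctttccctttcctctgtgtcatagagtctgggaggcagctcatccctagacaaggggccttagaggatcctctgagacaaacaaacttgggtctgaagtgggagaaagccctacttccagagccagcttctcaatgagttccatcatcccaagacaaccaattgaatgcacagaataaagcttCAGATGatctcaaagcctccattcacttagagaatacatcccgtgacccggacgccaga
Mog, chr17:37023399-37023648, minus strand: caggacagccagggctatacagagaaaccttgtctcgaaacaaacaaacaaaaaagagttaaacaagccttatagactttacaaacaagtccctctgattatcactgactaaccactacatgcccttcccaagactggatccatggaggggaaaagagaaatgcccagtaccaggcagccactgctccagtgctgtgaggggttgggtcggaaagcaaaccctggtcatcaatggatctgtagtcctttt
Opalin, chr19:41077114-41077363, minus strand: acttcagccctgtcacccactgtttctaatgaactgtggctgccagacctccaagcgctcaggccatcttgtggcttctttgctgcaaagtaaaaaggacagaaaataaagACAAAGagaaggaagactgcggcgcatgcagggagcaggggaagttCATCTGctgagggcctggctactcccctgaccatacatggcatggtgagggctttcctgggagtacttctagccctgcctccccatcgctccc
Ermn, chr2:58052865-58053114, minus strand: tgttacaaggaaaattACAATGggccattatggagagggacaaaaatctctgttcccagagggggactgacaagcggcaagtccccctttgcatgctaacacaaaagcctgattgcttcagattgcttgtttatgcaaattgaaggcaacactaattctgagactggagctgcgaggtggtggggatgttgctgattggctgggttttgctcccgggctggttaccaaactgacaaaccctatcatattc
The Plekhb1 window opens with CAGATG in reverse orientation, 250 bases before the start. Cnp holds ACAAAG 167 bases and CTGGCAC 81 bases before the start, Gjc3 holds CAGATG at 59 bases, Opalin holds ACAAAG at 139 and CAGATG in reverse at 93 bases, Ermn holds ACAATG at 234 bases, and the Mog window holds none of the 5 words. RefSeq windows were given for 26 of the 33 members, 40 windows in all, and the same search covered 32841 windows of all genes. CAGATG was in 32.5% of the member windows and 14.4% of all windows, ACAAAG in 30.0% and 16.5%, ACAATG in 12.5% and 10.7%, CTGGCAC in 4 of the 40 and 4.19%, and CAGCTG in 4 of the 40 and 13.0%. Windows of 1 gene share sequence, and a match is only a match of letters. No binding was measured.

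Depth implied by the smallest steps of the values ran from 2.86e+07 to 6.87e+07 reads in the cell libraries and from 1.70e+07 to 6.09e+07 in the brain libraries. Brain vehicle replicate 2 was the shallowest and gave 12.99% of its implied reads to Lars2 together with Gm15564, which overlaps it, where the other brains gave 0.07% to 0.08%. In the cells, CT-179 replicate 2 at 144 h stood apart from its group, with a sum of 425500 FPKM over all genes against 308000 to 349000 in the other cell libraries. Results that rest on either library are given with and without it. Values are FPKM (fragments per kilobase of transcript, scaled to library depth), normalized separately for cells and brains, so levels set side by side across the 2 tables were not tested.

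In whole brain every member was above 1 FPKM in each of the 6 libraries, over a span of more than 2 orders of magnitude. Mbp, which joins the cytoplasmic faces of compact myelin, was the most abundant member, with 1547, 1441 and 1525 FPKM in the vehicle brains, and ranked at place 9 of all genes there by mean level. Next in mean vehicle level came Tubb4a, a beta tubulin of neurons and oligodendrocytes, at 643 ± 71.1 FPKM (SD, n = 3), and Cnp, the cyclic nucleotide phosphodiesterase of non-compact myelin, at 539 ± 14.1 FPKM. Cldn11, which forms the tight junctions between myelin layers, stood at 448 ± 19.7 FPKM. Mag, the adhesion protein of the layer facing the axon, was at 398 ± 20.6 FPKM and Mobp, a small cytoplasmic myelin protein, at 368 ± 17.9 FPKM, while Mog, on the outer face of the sheath, was at 275 ± 23.2 FPKM. Neighbours in this order had vehicle libraries that did not overlap, except for Mag and Mobp (376 to 416 and 348 to 382 FPKM). At the low end stood Ninj2, an adhesion protein of the ninjurin family, at 4.78 ± 0.570 FPKM, and Evi2a, a membrane protein gene within an intron of Nf1, at 10.1 ± 1.92 FPKM.

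The enzymes that make myelin galactolipids lay between these ends. Ugt8a, which adds galactose to ceramide, was at 75.5 ± 15.6 FPKM in vehicle brain. Fa2h, which hydroxylates the fatty acids of these lipids, was at 70.0 ± 5.02 FPKM, and Gal3st1, which sulfates galactosylceramide to sulfatide, at 35.5 ± 0.951 FPKM. Gjb1 and Gjc3, which code for connexins of oligodendrocytes, stood at 36.9 ± 5.05 and 24.3 ± 3.89 FPKM. Among secreted products, Trf, the iron carrier transferrin, reached 269 ± 11.2 FPKM and Apod, the lipid carrier apolipoprotein D, 179 ± 18.03 FPKM. Enpp2, the secreted enzyme that makes lysophosphatidic acid, reached 140 ± 33.2 FPKM (it is also high in choroid plexus), and Lpar1, a receptor for that lipid, 23.3 ± 1.77 FPKM.

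**Figure D1:**
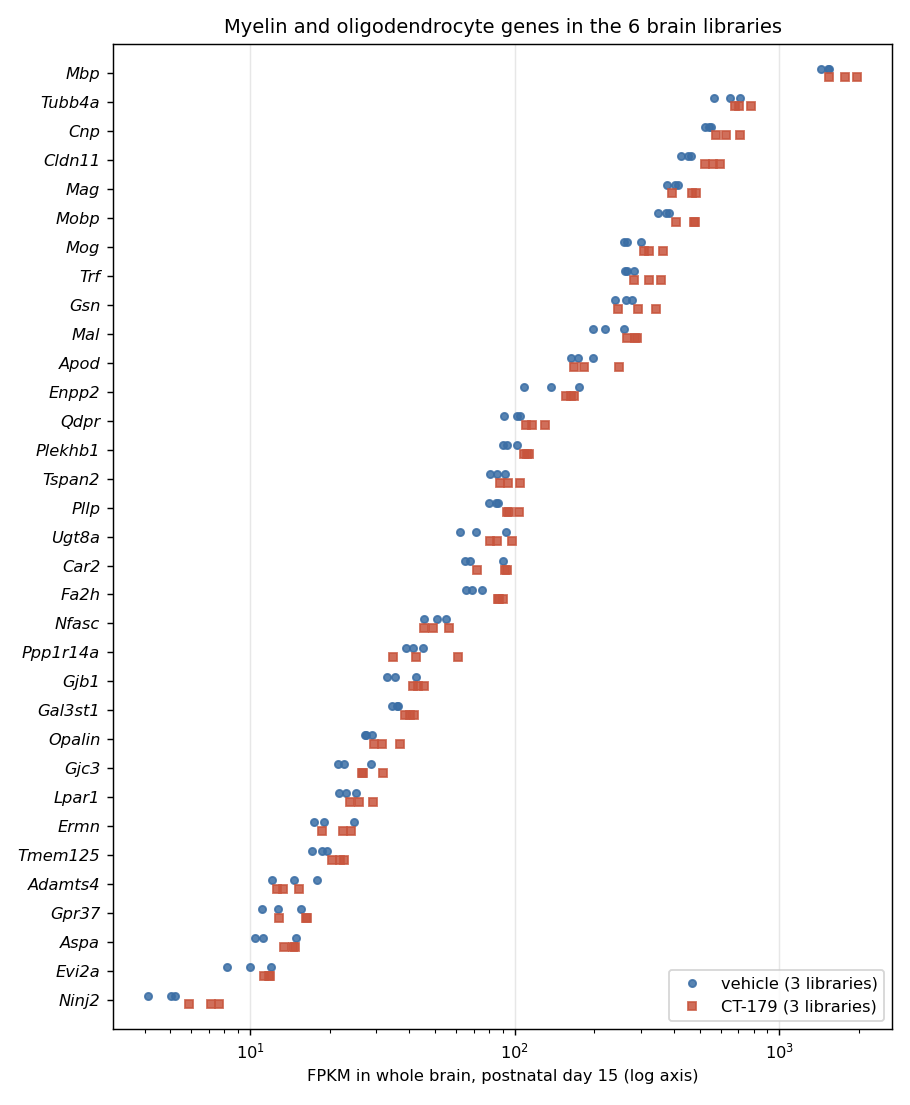
FPKM of the 33 genes on a log axis in the 3 vehicle brains (circles) and the 3 CT-179 brains (squares), ordered by mean level. Mbp lies highest, at 1441 to 1967 FPKM, and Ninj2 lowest, at 4.13 to 7.61 FPKM. For 14 genes every CT-179 square lies to the right of every vehicle circle.

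The brain comparison asked how CT-179 given from postnatal day 3 left these transcripts on day 15. Most of them lay somewhat higher in the CT-179 brains, and no member passed the test. Of the 33 members, 32 had a higher mean FPKM with CT-179, and Adamts4, a protease that cuts proteoglycans of the extracellular matrix, was the exception, at 13.8 ± 1.40 against 14.9 ± 2.87 FPKM. In the fit 31 of the 33 log2 fold changes were above 0. Limma called 0 members at an adjusted p under 0.05, in either direction, with 12 of the 33 at an unadjusted p under 0.05. Of the 13422 genes tested it called 0.0% higher and 0.0% lower, with 490 at an unadjusted p under 0.05. Fold changes were taken on log2(FPKM + 1), where a change at low FPKM appears smaller than it is. They had a median of 0.22 over the members and of 0.02 over all genes tested. The lowest value was -0.09 (Adamts4) and the highest 0.44 (Ninj2), and the adjusted p ranged from 0.97 to 0.9989.

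For 14 members (42.4%) the 3 CT-179 libraries all lay above the 3 vehicle libraries, and for 0 members all below. Of all genes tested, 5.71% lay wholly above and 4.6% wholly below in this way. The 14 were Cldn11, Cnp, Fa2h, Gal3st1, Mal, Mbp, Mobp, Mog, Ninj2, Opalin, Plekhb1, Pllp, Qdpr and Tmem125. The same 14 lay apart without vehicle replicate 2, where the shares of all genes were 8.08% and 7.03%. Members expressed in the same cells are not independent of each other, so the count cannot be read as 14 separate observations.

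Fa2h gave the smallest unadjusted p of the members (0.00325). It measured 75.5, 68.8 and 65.7 FPKM in the vehicle brains and 87.3, 86.3 and 90.4 FPKM in the CT-179 brains, a log2 fold change of 0.33 ± 0.08 (SE). The groups did not overlap, and the gap between them was wider than the spread of the CT-179 brains. Cldn11 measured 465, 427 and 453 FPKM with vehicle and 598, 526 and 561 FPKM with CT-179, a log2 fold change of 0.32 ± 0.10. Mal, a proteolipid that sorts membrane to the sheath, measured 259, 219 and 198 FPKM with vehicle and 265, 290 and 286 FPKM with CT-179, and its highest vehicle brain lay close to its lowest CT-179 brain. Ninj2 measured 5.19, 4.13 and 5.01 FPKM with vehicle and 7.61, 5.86 and 7.11 FPKM with CT-179.

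For Mbp, Mobp, Mog and Cnp, which code for abundant sheath proteins, every CT-179 brain also lay above every vehicle brain. Mbp measured 1967, 1548 and 1769 FPKM in the CT-179 brains, where the lowest lay just above the highest vehicle brain (1547 FPKM), and its log2 fold change was 0.22 ± 0.13 (unadjusted p 0.13). Mobp measured 374, 348 and 382 FPKM with vehicle and 479, 409 and 475 FPKM with CT-179. Mog measured 301, 258 and 265 FPKM with vehicle and 364, 309 and 323 FPKM with CT-179. For Cnp the values were 524, 541 and 552 FPKM with vehicle and 709, 578 and 628 FPKM with CT-179. In each of these 4 genes CT-179 replicate 1 was highest and CT-179 replicate 2 the lowest of its group. Mag did overlap between the groups, with 376, 403 and 416 FPKM in vehicle brains and 484, 395 and 468 FPKM in CT-179 brains.

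Other members overlapped more widely. Nfasc, whose glial form joins myelin to the axon at the paranode and whose neuronal form sits at the node, measured 45.3, 55.1 and 50.8 FPKM with vehicle and 45.4, 49.4 and 56.4 FPKM with CT-179. Ppp1r14a, an inhibitor of myosin phosphatase, measured 38.9, 41.4 and 45.0 FPKM with vehicle and 61.1, 34.8 and 42.4 FPKM with CT-179, so both the highest and the lowest library were CT-179 brains. Apod had 1 high library, CT-179 replicate 1, at 249 FPKM, and the other 5 lay between 163 and 198 FPKM. Tubb4a ranged from 567 to 709 FPKM with vehicle and from 679 to 783 FPKM with CT-179. Enpp2 spread from 109 to 175 FPKM among the vehicle brains, which took in all 3 CT-179 values (156 to 168 FPKM).

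By role, the median log2 fold change was 0.22 for the structural proteins (13 of 14 above 0), 0.23 for the enzymes (7 of 7), 0.23 for the gap junction genes (2 of 2), 0.20 for receptors and membrane proteins (4 of 4), 0.16 for the cytoskeletal genes (3 of 3) and 0.14 for the secreted group (2 of 3). Scaling to TPM (the same total for every library) lowered the median of all genes to -0.06 and that of the members to 0.13. Leaving out vehicle replicate 2 gave a median of 0.19 over the members. In the authors' deposited table, whose sign is vehicle over CT-179, 32 members had a negative log2 fold change, the median was -0.18, and the false discovery rate was 1.0 for every member. The fold changes of the authors' deposited table were also set against the ratio of mean vehicle to mean CT-179 FPKM, which is not the limma fold change. They followed that ratio more closely without vehicle replicate 2 (Pearson's r 0.96 across genes) than with it (0.737).

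The members did not move as 1 block among the brains. Each value was set against the mean of the 6 libraries on the log2 scale, and the median over the 33 members was -0.07, -0.14 and -0.15 in vehicle replicates 1, 2 and 3, and 0.19, 0.03 and 0.13 in CT-179 replicates 1, 2 and 3. All 3 vehicle medians were negative and all 3 CT-179 medians positive, while the medians of all genes tested lay between -0.02 and 0.02. CT-179 replicate 1 was the highest library for 19 members and CT-179 replicate 3 for 6, but vehicle replicate 1 was highest for 4. The lowest library was vehicle replicate 2 for 12 members, vehicle replicate 3 for 12, vehicle replicate 1 for 8 and CT-179 replicate 2 for 1. Without CT-179 replicate 1 the median log2 fold change was 0.19, and without CT-179 replicate 2 it was 0.26.

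**Figure D2:**
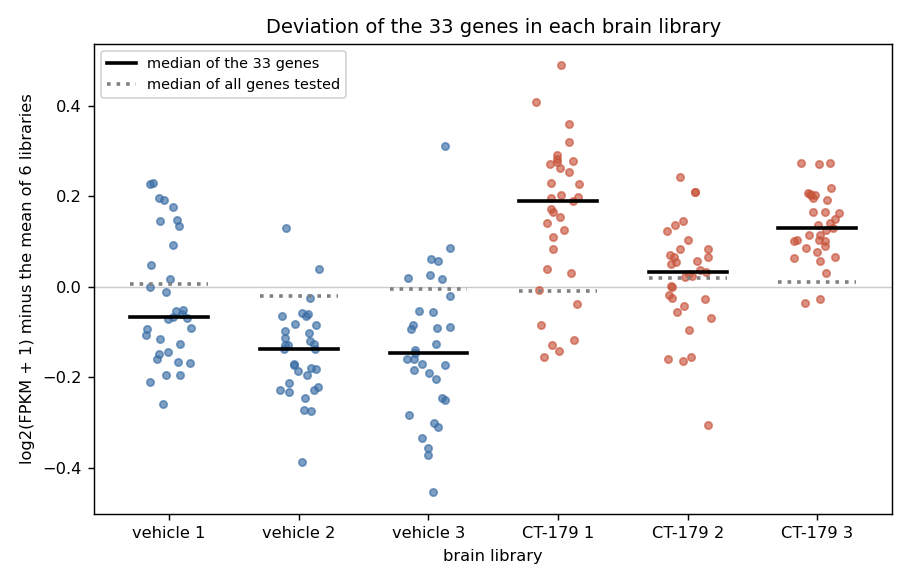
Difference of log2(FPKM + 1) from the mean of the 6 brain libraries for each of the 33 genes, by library. Solid bars are the medians of the 33 genes, from -0.15 in vehicle replicate 3 to 0.19 in CT-179 replicate 1, and dotted bars are the medians of all genes tested, which stay within 0.02 of 0.

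Within the vehicle group the members tended to differ by base composition, with exceptions. The GC content of their longest annotated transcripts ran from 38.0% to 61.7%, with a median of 51.0% (50.1% for all genes tested). Vehicle replicate 1 exceeded vehicle replicate 3 by 0.68 for Enpp2 and 0.57 for Ugt8a on the log2 scale, and was below it by 0.52 for Adamts4 (-0.52) and 0.32 for Tubb4a (-0.32). Fa2h had the same GC as Adamts4 (55.2%) but a difference of 0.20, and Apod (47.8%) had a difference of -0.28. Across the 33 members the rank correlation of this difference with GC was -0.66, against -0.31 across 12989 genes, and that of the deviation of vehicle replicate 1 alone was -0.70 against -0.34. CT-179 replicates 2 and 3 leaned the same way (-0.44 each). Members share libraries and cell type, so these are descriptions. The difference between CT-179 and vehicle had a rank correlation with GC of -0.09 over the members and 0.13 over all genes. With the exonic length of the gene, taken over all its transcripts, the rank correlation was -0.23 and -0.33. In CT-179 replicate 1 alone the rank correlation with length was -0.44 over the members and -0.48 over all genes. With length corrected the median log2 fold change of the members was 0.19, and a fit with GC corrected in each library gave a median of 0.22.

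**Figure D3:**
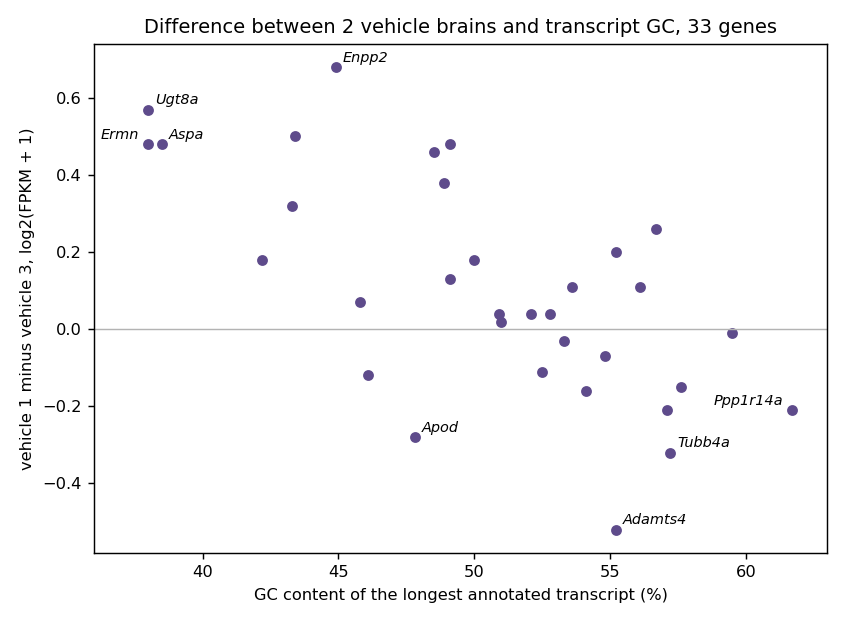
Difference between vehicle brain replicates 1 and 3 in log2(FPKM + 1), plotted against the GC content (%) of the longest annotated transcript, for the 33 genes. Genes of low GC such as Ugt8a (38.0%) lie high and Adamts4 (55.2%) lies lowest, with a rank correlation of -0.66. Fa2h, also at 55.2%, lies at 0.20.

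Markers of other cells were read in the same brains. The summed level of 6 neuron markers was 1041 to 1218 FPKM with vehicle and 1135 to 1334 FPKM with CT-179, and that of 6 astrocyte markers 650 to 740 and 700 to 821 FPKM. The 6 microglia markers summed to 78.5 to 88.8 and 74.8 to 99.3 FPKM, the 4 endothelial markers to 97.0 to 130 and 98.1 to 134 FPKM, and the 4 meningeal fibroblast markers to 42.3 to 45.8 and 40.3 to 51.8 FPKM. The 5 choroid plexus markers summed to 1044 to 1380 FPKM with vehicle and 1099 to 2389 FPKM with CT-179, and the 4 red blood cell markers found of 5 to 47.0 to 154 and 53.6 to 243 FPKM. CT-179 replicate 1 was the highest brain in these and 5 more of the 9 marker lists, all but the neuron and granule neuron precursor lists, and it was also highest for most members. Its FPKM summed to 438200 over all genes, against 353000 to 388100 in the other brains. The 3 Schwann cell markers found of 4 summed to 19.9 to 55.5 and 31.5 to 76.2 FPKM. The 5 granule neuron precursor markers summed to 98.1 to 104 and 74.5 to 101 FPKM. None of these markers passed the test in brain, and their part in the result was not tested.

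Other genes of the lineage were read in the same brains, and none of them passed the test. The 22 other mature oligodendrocyte genes tested had a median log2 fold change of 0.11, with 19 above 0. The 7 genes of newly formed oligodendrocytes tested had a median of 0.15. The 12 precursor markers had a median of -0.04 (5 above 0), with Pdgfra at -0.09 and Gpr17 at 0.04. Without vehicle replicate 2 the median of the precursor markers was 0.03 (7 above 0), so its sign rested on that library. Pdgfra was highest in that library, with 5.25, 6.99 and 5.30 FPKM with vehicle and 4.505, 5.76 and 6.08 FPKM with CT-179. The 11 transcription factors had a median of 0.07. Olig2 itself, whose protein CT-179 is labelled to inhibit, measured 26.9, 23.3 and 23.6 FPKM with vehicle and 25.9, 28.4 and 28.7 FPKM with CT-179, and Olig1 measured 160, 157 and 163 FPKM against 196, 178 and 194 FPKM. Sox10 had a log2 fold change of 0.07 and Myrf of 0.09. The 10 sphingolipid enzymes outside the list had a median of 0.07 and that of 9 axonal node and paranode proteins was 0.00 (3 above 0). Without vehicle replicate 2 the medians were 0.05 for the sphingolipid enzymes and 0.01 for the node and paranode proteins (6 above 0). In that fit they were 0.10 for the other mature genes, 0.11 for the newly formed genes and 0.10 for the transcription factors.

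In the medulloblastoma line at most 16 of the 33 members were expressed in any group. Taking 1 FPKM in all 3 libraries of a group as expressed, 11 of 33 members were expressed at 24 h with vehicle, the same 11 at 24 h with CT-179, 16 at 144 h with vehicle and 15 at 144 h with CT-179. The 11 were Adamts4, Car2, Cldn11, Cnp, Gjc3, Gsn, Plekhb1, Pllp, Qdpr, Trf and Tubb4a. Enpp2, Fa2h, Gpr37, Lpar1 and Nfasc joined them at 144 h, Fa2h with vehicle only. By role, at some time in vehicle, 5 of the 14 structural proteins, 4 of the 7 enzymes, 1 of 2 gap junction genes, 2 of 3 secreted proteins, 2 of 4 receptors and 2 of 3 cytoskeletal genes were expressed.

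A group of 7 members stayed under 0.1 FPKM in all 12 cell libraries: Mog, Mag, Mobp, Ermn, Gjb1, Evi2a and Tmem125. Mog gave 0 implied reads in every cell library, where 3 reads would have stood at 0.0330 to 0.0791 FPKM, against 258 to 364 FPKM in the brains. Mobp, at 348 to 479 FPKM in brain, reached at most 0.0134 FPKM in the cells, and Mag at most 0.0266 FPKM. Gjb1 gave 1 implied read over the 12 libraries. Mbp, the leading member in brain, was detected in every cell library but at 0.0332 to 0.411 FPKM. Floors and low values cover counting error only.

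**Figure D4:**
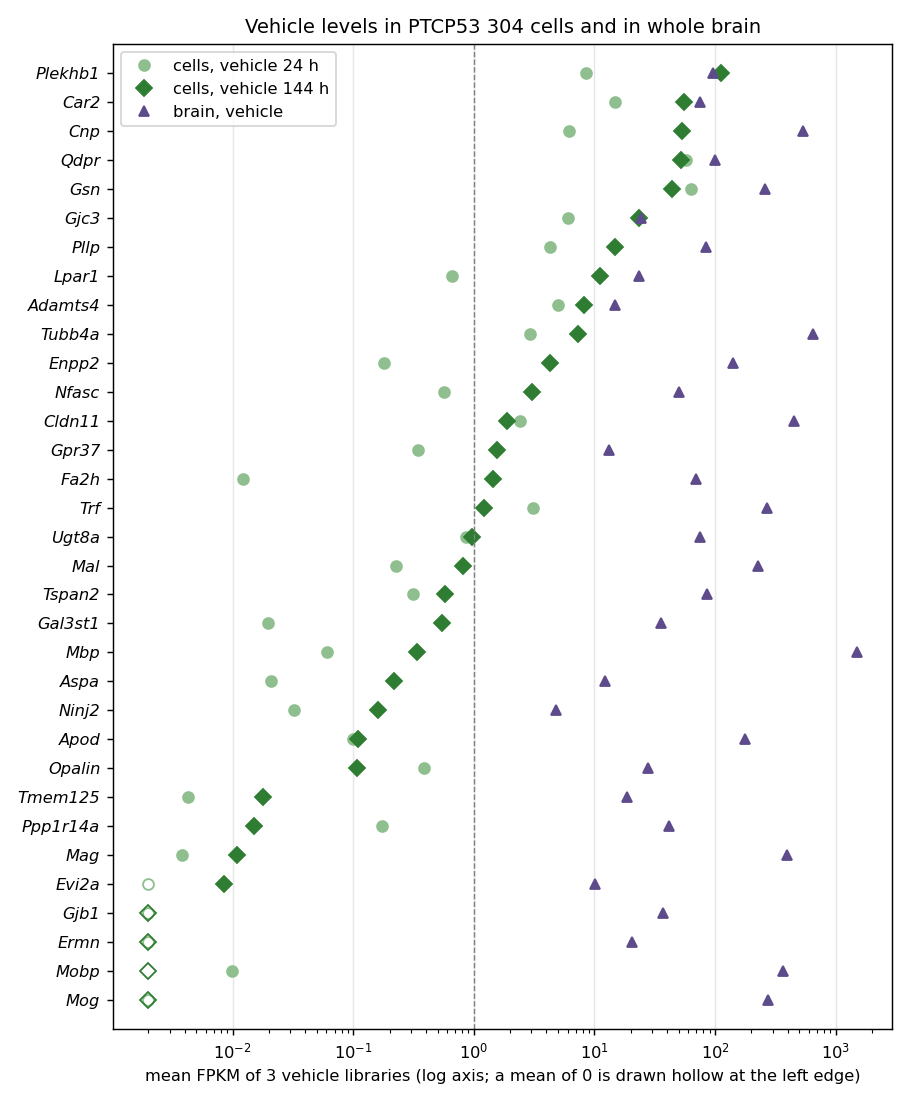
Mean FPKM of the 3 vehicle libraries on a log axis for each of the 33 genes, in the cells at 24 h (circles), in the cells at 144 h (diamonds) and in whole brain (triangles), ordered by the level at 144 h. The dashed line marks 1 FPKM and hollow symbols at the left edge stand for a mean of 0. Plekhb1 and Gjc3 lie at similar values in the cells at 144 h and in brain, while Mbp, Mobp and Mog lie far apart.

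The expressed members did not keep the order they had in brain. Plekhb1, a membrane protein with a pleckstrin homology domain, was the highest at 144 h in vehicle cells, at 113 ± 3.56 FPKM, beside 95.3 ± 6.01 FPKM in vehicle brain. Gjc3 stood at 23.5 ± 1.56 FPKM beside 24.3 ± 3.89 FPKM. Car2, a carbonic anhydrase, stood at 55.0 ± 2.25 FPKM in these cells beside 74.4 ± 14.2 FPKM in brain, and Qdpr, which regenerates tetrahydrobiopterin, at 51.7 ± 2.49 beside 99.3 ± 7.05 FPKM. For Cldn11 the values were 1.89 ± 0.601 and 448 ± 19.7 FPKM, and for Trf 1.21 ± 0.0572 and 269 ± 11.2 FPKM. The lineage factors differed as well. Olig2 was at 202 ± 4.27 FPKM in vehicle cells at 144 h and 24.6 ± 2.00 FPKM in vehicle brain, whereas Sox10 was at 0.213 ± 0.00415 and 39.6 ± 2.41 FPKM and Myrf at 0.465 ± 0.0437 and 14.7 ± 1.36 FPKM. Markers of microglia, endothelium, choroid plexus and red blood cells summed to under 1 FPKM in each of the 12 cell libraries.

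Time in culture gave more calls than CT-179 among the members, and most were in the higher direction. A filter of 1 FPKM in 3 of the 12 libraries left 16 members for the test, and 5 of them (Enpp2, Fa2h, Gpr37, Lpar1 and Nfasc) passed it only through the 144 h libraries and so had to differ with time. Between 24 h and 144 h in vehicle, limma called 12 members higher and 2 lower, against 34.1% of all 12510 genes higher and 32.4% lower. The 12 were Adamts4, Car2, Cnp, Enpp2, Fa2h, Gjc3, Gpr37, Lpar1, Nfasc, Plekhb1, Pllp and Tubb4a, and the 2 were Gsn and Trf. Libraries of the 2 times did not overlap for 12 members that were higher and 3 that were lower (44.6% and 42.9% of all genes). With no filter on low values, 18 of 32 members were called higher and 4 lower, against 20.1% and 15.7% of 29829 genes, the further ones being Aspa, Gal3st1, Mal, Mbp, Ninj2 and Tspan2 (higher) and Opalin and Ppp1r14a (lower).

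Plekhb1 had the highest fold change on log2(FPKM + 1), although with a pseudocount of 0.1 Enpp2 (3.97), Lpar1 (3.885) and Fa2h (3.79) lay above Plekhb1 (3.73). Plekhb1 measured 7.82, 8.77 and 8.77 FPKM at 24 h and 116, 109 and 114 FPKM at 144 h, a log2 fold change of 3.59 ± 0.09 (limma, adjusted p 1.41e-10). Cnp rose from 5.83, 6.22 and 6.26 FPKM to 53.8, 54.0 and 51.5 FPKM (2.93 ± 0.09, adjusted p 8.70e-10). The 2 times were far apart in both genes and replicates were tight. Lpar1 measured 0.614, 0.763 and 0.597 FPKM at 24 h and 10.8, 12.2 and 10.3 FPKM at 144 h, and Enpp2, the enzyme that makes its ligand, 0.148, 0.181 and 0.212 FPKM and then 4.34, 4.51 and 4.02 FPKM. Both rose (2.86 and 2.16). Car2 rose from 14.5 to 15.2 FPKM at 24 h to 53.1 to 57.5 FPKM at 144 h, and Gjc3 from 5.71 to 6.62 FPKM to 21.8 to 24.9 FPKM.

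Fa2h was at 0.0246, 0.0118 and 0 FPKM at 24 h, where 3 reads stand for up to 0.0448 FPKM, and at 1.43, 1.59 and 1.32 FPKM at 144 h. Mbp moved within very low values, from 0.0629, 0.0461 and 0.0743 FPKM to 0.395, 0.289 and 0.332 FPKM (log2 fold change 0.33 on log2(FPKM + 1), adjusted p 2.86e-05 without the filter). Opalin, an oligodendrocyte membrane glycoprotein, went the other way, from 0.426, 0.425 and 0.318 FPKM to 0.104, 0.102 and 0.116 FPKM (-0.33, adjusted p 4.58e-04 without the filter). Trf fell from 3.07, 3.29 and 2.97 FPKM to 1.27, 1.16 and 1.195 FPKM (-0.89, adjusted p 4.27e-07), and Gsn, the actin-severing protein gelsolin, from 66.4, 62.2 and 62.6 FPKM to 43.8, 46.3 and 41.2 FPKM (-0.53, adjusted p 2.75e-05). Cldn11 (-0.27, adjusted p 0.177) and Qdpr (-0.14, adjusted p 0.508) did not pass, although Qdpr passed without CT-179 replicate 2 at 144 h (adjusted p 0.00424). Over the alternatives the adjusted p ran from 0.00119 to 0.736 for Qdpr and from 0.0319 to 0.552 for Cldn11.

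Related genes moved in several directions over the same time. Some of these genes, too, passed the filter only through the 144 h libraries and so had to differ with time. They were 5 of 12 other mature oligodendrocyte genes (Cd82 and Arsg among them), 2 of 11 precursor markers (Gpr17 and Matn4), 3 of 6 astrocyte markers (Gfap, Aqp4 and Aldh1l1) and 2 of 5 node proteins (Epb41l3 and Kcna2). Of the 12 other mature oligodendrocyte genes tested, 9 rose and 3 fell. Among those that rose, Sirt2, a deacetylase abundant in myelin, had a log2 fold change of 1.99, the tetraspanin Cd82 2.17 and Arsg, a sulfatase, 1.44. Anln, a cytokinesis protein listed here because oligodendrocytes also express it, fell (-3.06). Of 11 precursor markers 7 rose and 1 fell (9 and 2 without CT-179 replicate 2 at 144 h). Gpr17, a receptor of committed precursors, rose from 0.217 to 0.242 FPKM to 45.7 to 51.5 FPKM and Pdgfra, the growth factor receptor of precursors, from 6.08 to 6.83 FPKM to 21.2 to 21.7 FPKM. Of 6 transcription factors 3 rose and 2 fell, and Olig2 was among the latter, with 366 to 395 FPKM at 24 h and 197 to 206 FPKM at 144 h. All 6 astrocyte markers rose, with summed levels of 104 to 107 FPKM at 24 h and 486 to 493 FPKM at 144 h. All 5 node proteins tested rose, and 6 of 10 sphingolipid enzymes rose and 2 fell.

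In the cells at 24 h, the comparison of CT-179 with vehicle gave no call among the members. Limma called 0 of 16 (0 at an unadjusted p under 0.05), beside 0.0% of all genes higher and 0.264% lower. Libraries did not overlap for 5 members that were higher (Car2, Cnp, Gsn, Plekhb1 and Tubb4a) and 1 that was lower (Adamts4), and 14.5% and 22.9% of all genes did the same. Pllp, a proteolipid of the sheath, had the largest difference, with 3.91, 4.83 and 4.06 FPKM with vehicle and 4.73, 5.78 and 4.70 FPKM with CT-179 (log2 fold change 0.20 ± 0.18). Its groups overlapped. Plekhb1 measured 9.47, 10.5 and 9.11 FPKM with CT-179 (0.18 ± 0.09) and Cnp 6.36, 6.88 and 6.89 FPKM (0.12 ± 0.09). Without CT-179 replicate 2 at 144 h, whose spread enters the shared fit, Cnp (adjusted p 0.0399), Car2 (0.0488) and Plekhb1 (0.0327) passed in the higher direction at the same fold changes, where 8.08% of 12459 genes were called higher and 14.1% lower.

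At 144 h, 1 member passed. Gsn measured 43.8, 46.3 and 41.2 FPKM with vehicle and 62.8, 57.4 and 63.3 FPKM with CT-179, a log2 fold change of 0.47 ± 0.06 (limma, adjusted p 0.0036). All 3 CT-179 libraries lay above all 3 vehicle libraries, near the level of vehicle cells at 24 h. The gene lies on chr2:35256380-35307892 (mm10, plus strand). Over all genes 0.512% were called higher and 3.37% lower, and 0 members were called lower. The Gsn call was lost when values were scaled to TPM (0.29, adjusted p 0.157), which moved the median of all genes from -0.05 to -0.20, when gene length was corrected (0.36, adjusted p 0.0516) and when the 6 libraries of 144 h were fitted alone (0.47, adjusted p 0.185). Without CT-179 replicate 2 it was 0.52 (adjusted p 4.02e-05).

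Fa2h passed the filter through the 3 vehicle libraries at 144 h, the group where it was high, while 1 of the 3 CT-179 libraries reached 1 FPKM, so its lower direction is a description. It measured 1.43, 1.59 and 1.32 FPKM with vehicle and 0.623, 1.21 and 0.696 FPKM with CT-179, a log2 fold change of -0.42 ± 0.10 (adjusted p 0.0507). The groups did not overlap, and CT-179 replicate 2 lay closest to vehicle. Without that library the value was -0.56 (adjusted p 1.98e-04), and with gene length corrected it was -0.55 (adjusted p 0.00168). Over all alternatives the adjusted p of Fa2h ran from 5e-06 to 0.438. Trf measured 1.27, 1.16 and 1.195 FPKM with vehicle and 1.58, 1.37 and 1.63 FPKM with CT-179, and did not pass. Without that library Trf (0.24, adjusted p 0.00865) and Adamts4 (0.22, adjusted p 0.00667) passed beside Gsn and Fa2h, where 11.8% of all genes were called higher and 16.9% lower. With array weights, which keep all libraries, Gsn, Trf (adjusted p 5.88e-04), Adamts4 (adjusted p 2.70e-04) and Qdpr (adjusted p 0.0154) passed in the higher direction and Fa2h and Cldn11 (adjusted p 0.00399) in the lower. These were 4 and 2 of 16 members, in a fit that called 2673 of 12510 genes higher and 3317 lower. Qdpr was highest in replicate 2, at 99.3 FPKM against 54.3 and 56.5 FPKM in the other CT-179 libraries and 49.1 to 54.0 FPKM with vehicle. Libraries did not overlap for 3 members that were higher (Gsn, Qdpr and Trf) and for Fa2h, which was lower, beside 19.1% and 27.0% of all genes.

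**Figure D5:**
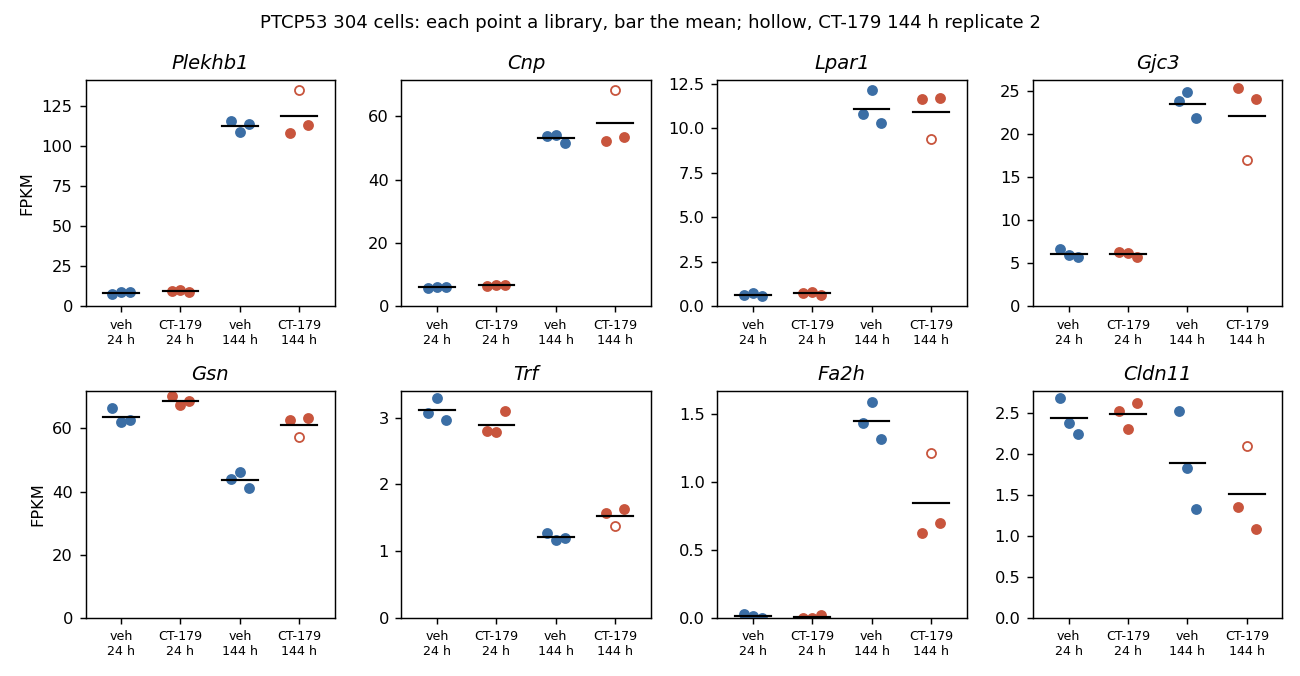
FPKM of 8 genes in the 12 cell libraries, by treatment and hours (veh, vehicle). Points are libraries, bars are means of 3, and the hollow point is CT-179 replicate 2 at 144 h. Plekhb1, Cnp, Lpar1 and Gjc3 differ by time, and for Gsn and Fa2h the treated and vehicle points at 144 h do not overlap, although Fa2h did not pass the test.

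The genes that rose most with time did not pass for CT-179 at 144 h. Plekhb1 measured 109, 135 and 113 FPKM with CT-179 (log2 fold change 0.07 ± 0.09), Cnp 52.2, 68.4 and 53.4 FPKM (0.11 ± 0.09), Lpar1 11.6, 9.41 and 11.7 FPKM (-0.02 ± 0.09), Gjc3 25.3, 17.0 and 24.0 FPKM (-0.10 ± 0.13) and Car2 54.8, 68.0 and 54.3 FPKM (0.09 ± 0.09). In each of them CT-179 replicate 2 lay farthest from the other 2 CT-179 libraries. Mbp, at 0.325, 0.411 and 0.325 FPKM, and Mog, at 0, stayed low with CT-179, unlike the structural members Plekhb1 and Cnp. Among related genes, 2 of 11 precursor markers tested fell, Gpr17 from 45.7 to 51.5 FPKM with vehicle to 20.8 to 27.7 FPKM with CT-179 (-0.99, adjusted p 8.43e-04) and Tnr, a matrix glycoprotein of precursors (-1.12, adjusted p 0.0374). Of 5 node proteins tested, Cntn1 (-0.70) and Epb41l3 (-0.61) fell. With all libraries, none of 12 other mature oligodendrocyte genes, 6 transcription factors, 5 newly formed oligodendrocyte genes or 10 sphingolipid enzymes passed. Without CT-179 replicate 2, 7 of 11 precursor markers and 4 of 5 node proteins were called lower. In the same fit 2 other mature oligodendrocyte genes were called higher and 3 lower, 1 transcription factor higher and 3 lower, 1 newly formed oligodendrocyte gene lower and 0 sphingolipid enzymes in either direction. Olig2 measured 197 to 206 FPKM with vehicle and 180 to 216 FPKM with CT-179. Summed astrocyte markers were 486 to 493 FPKM with vehicle and 322 to 474 FPKM with CT-179, with 1 of 6 called lower (3 lower and 1 higher without replicate 2), and their part in these results was not tested.

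Whether the response to CT-179 differed between 144 h and 24 h was tested directly. No member passed, and 0.0% of all genes were called in each direction (574 genes and 3 members at an unadjusted p under 0.05). The 3 were Gsn (0.37 ± 0.09, adjusted p 0.634), Trf (0.27 ± 0.09) and Fa2h (-0.41 ± 0.14). Without CT-179 replicate 2 at 144 h, Gsn (0.41, adjusted p 0.00725), Trf (0.31, adjusted p 0.0495), Adamts4 (0.30, adjusted p 0.033) and Fa2h (-0.55, adjusted p 0.0105) passed, where 1.2% of 12459 genes were called higher and 1.46% lower. Fa2h passed the filter only through 144 h libraries and lay at 0 to 0.0246 FPKM in the 24 h libraries. Its value in this comparison therefore largely repeats the difference at 144 h and is a description.

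Some values carry a limit from overlapping genes, since the strand of counting is not given in the sources used here. In the GENCODE annotation Trf shares 2108 exonic bases with Gm20425, Pllp 1128 with the antisense gene Gm45767, Evi2a 442 with Evi2, Enpp2 345 with Gm26684, Qdpr 332 with Gm42413, Ermn 237 with Galnt5, Cnp 154 with Dnajc7, Tspan2 88 with Tspan2os and Mobp 79 with Gm38642. Reads in these stretches cannot be told apart between the 2 genes.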

How the data were processed

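RNA was purified on RNeasy columns and sequenced as paired reads of 100 bases from SMARTer mRNA libraries, per the labels' protocols. The tools named, per the submitters' processing notes, are STAR 2.6.0c, Trim Galore 0.5.0, edgeR 3.28.1, HTSeq 0.6.1p2 and R 3.6, with the build mm10. Their settings are not given in the sources used here. FPKM, 1 value per gene and library, was deposited. The brain table holds further columns per the file headers: the authors' likelihood ratio score, their p-value and false discovery rate, and on the log2 scale their fold change and mean abundance. No column of sample values was left unused (0 columns).

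FPKM keeps the steps of single reads only after multiplication by gene length, which GENCODE M21 gave for 98.1% of cell and 97.0% of brain identifiers. Within 0.1 read and up to 20 reads, low values were whole in 90.0% to 92.0% of cases in the cells and 93.6% to 98.5% in the brains, which gave the implied depths. Floors are 3 reads per library. No count model was run, since FPKM was not turned back into a count table.

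The test was limma 3.58.1 (R 4.3.3; group means, mean trend, two-sided) on log2(FPKM + 1), for genes that reached 1 FPKM in 3 or more libraries, in 1 fit of 12 cell libraries (12510 genes) and 1 of 6 brain libraries (13422 genes). P-values were adjusted by Benjamini-Hochberg over all genes of a fit, with a threshold of 0.05. The model was tested on simulated data first. The members, the related gene lists and the marker lists were chosen with earlier results of these data known, so list counts and medians are descriptions and no list was tested. All 33 members are covered in brain, by value, range or count, and in the cells those past the filter or named for their level. From a related list the text may name genes past the threshold, up to the 4 smallest p per comparison, and Olig1, Olig2, Sox10, Myrf, Gpr17 and Pdgfra always. Some items are not reported here. Alternatives were another pseudocount, no filter, median-of-ratios and TPM scaling, length and GC correction, array weights, a replicate block, separate fits per time and each library left out.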

Additional observations from a re-analysis of the deposited data

How the results depend on the processing

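In brain, limma called 0 members higher and 0 lower under every alternative, with 2 to 24 members at an unadjusted p under 0.05. The 2 came with TPM scaling, where 477 of 13422 genes were under it, and the 24 with array weights, where 1761 were. The main fit had 12 members and 490 genes under it. Some members near 0 changed sign. Nfasc had a log2 fold change of 0.08 with array weights, 0.1 with length correction, alone and with the replicate block, 0.12 without vehicle replicate 2 and length corrected, 0.06 without vehicle replicate 2 and median-of-ratios scaled, and -0.08 to 0.07 when single libraries were left out. Ppp1r14a was at -0.0 with array weights. With single libraries left out, Ppp1r14a ran from -0.12 to 0.28, Apod from -0.03 to 0.26, Ermn from -0.0 to 0.23 and Adamts4 from -0.22 to 0.04.

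In the cells at 24 h, the 0 members called higher became 4 with array weights, 6 without CT-179 replicate 2 at 144 h and median-of-ratios scaled, and 0 to 3 when single libraries were left out. Over all genes the 0 higher and 33 lower became 1184 and 2135 with array weights and 1007 and 1755 without CT-179 replicate 2 at 144 h. They became 2622 and 1075 without that library and median-of-ratios scaled. When the times were fitted separately they became 701 and 1295, and that fit called 0 of 11 members. At 144 h, the 1 member called higher became 0 with TPM scaling, length correction, the replicate block with length correction or a separate fit, 4 with array weights, 3 without CT-179 replicate 2 and length corrected, 4 without it and median-of-ratios scaled, and 1 to 3 when single libraries were left out. The 0 members called lower became 1 with TPM scaling, length correction or the replicate block with length correction, 2 with array weights, 2 without CT-179 replicate 2 and length corrected, 1 without it and median-of-ratios scaled, and 0 to 1 when single libraries were left out. Fa2h was among those called lower with length correction and with array weights. It passed the filter through the vehicle libraries at 144 h, where it was high, so counts that hold it are descriptions. Over all genes the 64 higher and 422 lower became 1472 and 2108 without CT-179 replicate 2, 2775 and 1412 without it and median-of-ratios scaled, 2673 and 3317 with array weights, and 0 and 0 in a separate fit. They became 1018 and 1734 without CT-179 replicate 2 and length corrected, 37 and 456 with TPM scaling, and 141 and 571 with length correction. With TPM scaling 3 of the 16 members tested had a fold change above 0, against 8. Adamts4 at 144 h was -0.12 with TPM scaling, and -0.05 to 0.22 when single libraries were left out. For the difference between the times, 0 members higher became 3 with array weights, 2 without CT-179 replicate 2 and length corrected, 2 without it and median-of-ratios scaled, and 0 to 3 when single libraries were left out, and 0 lower became 1 with array weights, 1 and 1 in the same combined settings, and 0 to 1. The member called lower was Fa2h each time, so these lower counts too are descriptions. Over all genes 604 were called higher and 627 lower with array weights, and 150 and 200, then 125 and 184, in the combined settings. For time in vehicle, the 2 members called lower became 4 with no filter and 4 without CT-179 replicate 2 and median-of-ratios scaled, and 2 to 3 when single libraries were left out, where the count higher was 12 each time. Over all genes 4692 of 29829 were called lower with no filter and 5717 of 12459 in that combined setting. The cause was not tested for any of these changes.

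Samples of the same number correlated in their deviations at -0.13 to 0.241 in cells and -0.394 to 0.108 in brain. Those of different numbers correlated at -0.242 to 0.153 and -0.559 to 0.461. With so few libraries per group these values cannot settle whether the numbers pair the samples, and the main fit did not pair them. A replicate block left the member counts as they were, at 0 and 0 at 24 h, 1 and 0 at 144 h, 12 and 2 over time and 0 and 0 in brain, and moved the genes called lower at 24 h from 33 to 2 and those called at 144 h to 35 and 266. The settings that combine a left-out library with a scaling, and the GC correction, were chosen after seeing the data. The estimate of array weights did not converge in 1 fit. Depth limits members near the floor of 3 reads in the cells, such as Mog.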
